A study of Homo sapiens with 4 samples.

Results

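Fatty acid oxidation and ketone body genes were followed across 2 human hepatocellular carcinoma cell lines, Huh1 and Huh7, after knockdown of ODC1. The 34 genes were taken by symbol from the deposited tables, not by their values. They stood on 35 of the 18398 transcript rows, out of 18382 symbols in all, because SCP2 had 2 rows. RNA sequencing was done on total RNA of each line transfected with a negative control siRNA or with an siRNA against ODC1, the gene of ornithine decarboxylase, which makes putrescine and so starts the polyamines. There were 4 libraries, 1 for every pairing of a line with an siRNA, and pairs of values below are given for control and then ODC1 siRNA. No time after transfection and no untransfected sample entered the comparison, and sequences of the siRNAs were not used here. The p-values below therefore measure the spread between these 4 libraries, which may be technical, and not between separate cultures. In bulk RNA, fewer cells that express a gene and less RNA of it per cell cannot be told apart.

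Long-chain fatty acids enter mitochondria as carnitine esters, through the carnitine palmitoyltransferases and a carnitine-acylcarnitine carrier. Inside, beta-oxidation shortens them by repeated dehydrogenation, hydration, a further dehydrogenation and thiolysis, and the electron transfer flavoprotein passes electrons on to the respiratory chain. Peroxisomes shorten very long and branched chains with a separate set of enzymes. Hepatocytes turn surplus acetyl-CoA into ketone bodies for export, which other tissues burn.

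Sequencing depth, recovered from the spacing of low values, ranged from 10215329 to 13384836 reads per library, so 1 read on a transcript of 2 kb was worth 0.0374 to 0.0489 RPKM (reads per kilobase, scaled to library depth). ODC1 was at 103.41 and 25.01 RPKM in Huh1, against 167 and 7.501 in Huh7, the direction of the labels. All 11 hepatocyte markers were above 1 RPKM in every library, with summed levels of 6450 and 5860 RPKM in Huh1 and of 3520 and 2840 RPKM in Huh7 (control, then ODC1 siRNA). ALB, at 3447 and 2806 RPKM, was the largest part of the Huh1 sum. AFP went the other way, at 24.8 and 23.8 RPKM in Huh1, against 865 and 687 in Huh7. So did TTR (5.10 and 6.91, against 29.3 and 44.0) and FGB (178 and 151, against 195 and 183). The other hepatocyte markers were lower in Huh7 under either siRNA. The 4 fibroblast markers summed to 12.1 and 15.6 RPKM in Huh1 and to 282 and 367 RPKM in Huh7. LUM was the largest part, at 12.0 and 15.5 RPKM in Huh1, against 143 and 193 in Huh7, where COL1A1 stood at 107 and 128 RPKM. DCN was at most 0.73 RPKM in any library. The 4 leukocyte markers summed to 23.6 and 25.4 RPKM in Huh1, against 3.99 and 6.32 in Huh7, nearly all of it CD68, a lysosomal gene, while PTPRC and CD3E were at 0 in Huh1 and at most 0.147 and 0.0542 in Huh7. The 3 cholangiocyte markers summed to 100 and 101 RPKM in Huh1, against 142 and 118 in Huh7, with KRT7 at 84.4 and 84.7 in Huh1, against 0.660 and 0.485, and KRT19 at 12.0 in either Huh1 library, against 110.5 and 88.5. The endothelial rows summed to at most 0.0222 RPKM and the adipocyte rows to at most 0.769 RPKM. These markers moved with the line, and their part in the differences between Huh1 and Huh7 was not tested.

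Promoter sequences of 5 members are shown as context, and no measurement here ties them to the levels. RefSeq windows from 250 bases before to 50 bases after the start (GRCh38.p14) matched 26 of the 34 genes. The carrier gene SLC25A20 was the member that passed the siRNA test, and the 200 bases before its start hold GGGCGG, on either strand, 3 times (capitals).
SLC25A20, chr3:48898883-48899082, minus strand: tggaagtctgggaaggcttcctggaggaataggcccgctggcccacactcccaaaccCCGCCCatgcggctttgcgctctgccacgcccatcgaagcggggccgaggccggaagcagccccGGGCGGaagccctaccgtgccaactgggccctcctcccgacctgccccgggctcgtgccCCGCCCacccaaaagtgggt
HADHA and HADHB, the subunits of the trifunctional protein, start 306 bases apart in opposite directions, and the 194 bases that both windows share hold the word 1 time.
HADHA and HADHB, chr2:26244689-26244882, plus strand: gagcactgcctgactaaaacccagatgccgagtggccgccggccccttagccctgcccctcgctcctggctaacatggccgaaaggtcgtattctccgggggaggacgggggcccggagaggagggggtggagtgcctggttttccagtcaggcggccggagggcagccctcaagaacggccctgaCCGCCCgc
Of the 40 windows of the 26 genes, since some genes have several, 24 held the word (60%), as did 45% of all 35116 windows. FABP1 and ACADS held a direct repeat of the nuclear receptor type (NGGNCANAGGNCA, either strand, in capitals), present in 322 of 35116 windows, or 0.917%. Its letters overlap those of AGGTCA, which stood in the windows of ACAD10 and FABP1 and in 13.8% of all.
FABP1, chr2:88128088-88128160, minus strand: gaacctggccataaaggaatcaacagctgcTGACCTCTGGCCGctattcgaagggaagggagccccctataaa
ACADS, chr12:120725766-120725838, plus strand: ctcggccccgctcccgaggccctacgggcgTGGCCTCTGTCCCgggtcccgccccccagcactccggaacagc
Counted from the start, the repeat begins at -68 in FABP1 and at -30 in ACADS. CACGTG stood in the window of ACAD9 and in 7.26% of all windows. These are matches of letters and say nothing of which factor binds.

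With ODC1 siRNA, 1 of the 34 member rows that could be tested passed over both lines, SLC25A20, and none was lower. Tests used limma on log2(RPKM + 1) with line and siRNA as terms, over 12039 transcripts with at least 1 RPKM in any library, and an adjusted p (Benjamini-Hochberg) under 0.05. Over all transcripts, 1.5% were called higher and 0.615% lower, so the members' share lay near the background. At an unadjusted p under 0.05, 6 members passed (ACADM, HADHB, SLC25A20, CD36, ECI1 and ACAD10), against 19.0% of all transcripts. CYP4A11 was under 1 RPKM in every library and was not tested.

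Within a line there is 1 library per siRNA, so differences were counted by size alone, on the log2(RPKM + 1) scale. No member of 34 reached 2-fold in Huh1, where 0.0550% of transcripts were that much higher and 0.0275% that much lower. None of 33 reached it in Huh7, against 0.342% higher and 0.429% lower. In plain RPKM, SLC22A5 did pass 2-fold in Huh7, with a ratio of 0.475. On the log2(RPKM + 1) scale its change was -0.75. A 1.2-fold rule, added after the values were seen, took 5 members as higher in Huh1 (ACAT1, SLC25A20, FABP1, ACOT2 and ACAD10; 10.3% of all) and 2 as lower (CD36 and BDH1; 5.89%). In Huh7 it took 3 as higher (SLC25A20, ECI1 and ACAD10; 15.3% of all) and 4 as lower (ACADM, FABP1, CPT1A and SLC22A5; 15.7%).

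The members' log2 fold changes had a median of 0.11 in Huh1, with 25 of 34 above 0, beside 0.02 over all transcripts, of which 55.1% were above 0. In Huh7 the median was -0.01, with 15 of 33 above 0, beside -0.00 and 49.5% over all. Members above 0 in both lines numbered 13 of 34 (34.1% of all transcripts), and 7 were below 0 in both (30%), namely ACADM, HSD17B4, CD36, EHHADH, ACOX2, BDH1 and ECI2.

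**Figure D1:**
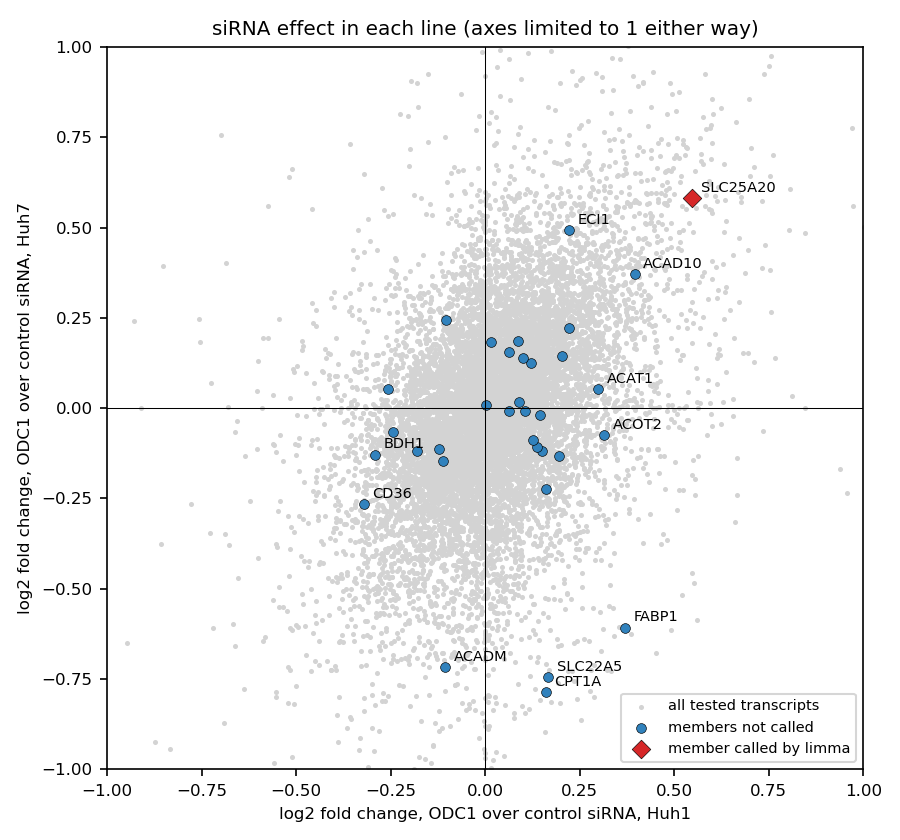
Log2 fold change of each member with ODC1 against control siRNA, on the log2(RPKM + 1) scale, in Huh1 (horizontal axis) and in Huh7 (vertical axis), over all tested transcripts in grey, with both axes limited to 1 either way. The diamond marks the member called by limma, SLC25A20, at 0.55 and 0.58, while CPT1A (0.16 and -0.79) and FABP1 (0.37 and -0.61) lie above 0 in Huh1 and below 0 in Huh7.

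Of the carnitine shuttle, the carrier passed the siRNA test and the other 3 genes did not. SLC25A20, which exchanges acylcarnitine for carnitine across the inner mitochondrial membrane, was at 24.8 RPKM with control and 36.7 RPKM with ODC1 siRNA in Huh1, against 9.84 and 15.2 in Huh7. It was higher with ODC1 siRNA in both lines, and both Huh1 libraries lay above both Huh7 libraries. The ratios were 1.48 (95% counting interval 1.33 to 1.65) in Huh1 and 1.55 (1.30 to 1.85) in Huh7. On average over the lines the log2 fold change reached 0.56 (SE 0.09, limma adjusted p = 0.0221). That call was lost at adjusted p = 0.0509 with quantile normalization, 0.0525 with a pseudocount of 0.1, 0.204 without a variance trend and 0.293 without a filter, and it held with 4 other settings that kept the line term. Counting intervals cover counting error only.

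CPT1A, the outer membrane transferase that controls entry into beta-oxidation, was at 44.3 and 49.6 RPKM in Huh1, against 18.8 and 10.5 in Huh7. The ODC1 library was the higher one in Huh1 (ratio 1.12, interval 1.06 to 1.18) and the lower one in Huh7 (0.558, 0.503 to 0.617). Over both lines the mean was -0.31 (adjusted p = 0.396 by limma). SLC22A5, the carnitine importer of the plasma membrane, was at 4.62 and 5.30 RPKM in the Huh1 libraries and 3.34 and 1.59 in those of Huh7, with a Huh7 ratio of 0.475 (0.334 to 0.653). CPT2, which reforms acyl-CoA inside the mitochondrion, was at 5.43 and 5.72 RPKM in Huh1, against 15.3 and 15.2 in Huh7. The CPT2 values of a line lay close together, and both Huh7 libraries lay above both Huh1 libraries. Whether the siRNA effect on CPT1A or SLC22A5 differs between the lines was not tested, since 4 libraries leave no degree of freedom for it.

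The acyl-CoA dehydrogenases catalyse the first dehydrogenation, each over a range of chain lengths. ACADM, the medium-chain enzyme, was at 22.8 and 21.1 RPKM in Huh1, against 21.4 and 12.6 in Huh7. Its Huh7 ODC1 library stood below the other 3 libraries, with a ratio to control of 0.59 (0.516 to 0.673) in Huh7 and 0.926 (0.833 to 1.03) in Huh1. ACAD10, a family member of less certain substrate, was at 3.74 and 5.24 RPKM in the Huh1 libraries and 6.37 and 8.54 in those of Huh7. Its ratios were 1.40 (1.16 to 1.70) and 1.34 (1.14 to 1.56), and its mean of 0.38 did not pass (adjusted p = 0.12 by limma).

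ACADVL, the very-long-chain enzyme, was at 163 and 178 RPKM in Huh1, against 44.1 and 48.2 in Huh7. The ratio of ACADVL to ACADM in RPKM was 7.18 and 8.44 in Huh1 and 2.06 and 3.81 in Huh7, higher with ODC1 siRNA in each line. ACADS, the short-chain enzyme, was at 3.84 and 4.41 RPKM in Huh1, against 7.14 and 5.97 in Huh7. ACAD9, also an assembly factor of respiratory complex I, was at 16.2 and 16.3 RPKM in the Huh1 libraries and 22.4 and 22.5 in those of Huh7, the smallest siRNA differences among the named dehydrogenases. ACAD11 was at 11.2 and 11.3 RPKM in Huh1, against 8.60 and 9.91 in Huh7.

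Among the enzymes of the later mitochondrial steps, log2 fold changes with siRNA ran from -0.24 to 0.22 in Huh1 and from -0.07 to 0.49 in Huh7. ECI1, an isomerase needed for unsaturated fatty acids, was at 42.9 and 50.3 RPKM in Huh1, against 11.2 and 16.2 in Huh7, with ratios of 1.17 (1.06 to 1.29) and 1.44 (1.2 to 1.74). The mean of 0.36 had an adjusted p of 0.0929 by limma. Its relative ECI2 was at 82.0 and 69.1 RPKM in the Huh1 libraries and 47.9 and 45.7 in those of Huh7. It did not pass for siRNA (adjusted p = 0.313 by limma). Its ratio was 0.842 (0.778 to 0.911) in Huh1, while the Huh7 ratio of 0.953 (0.859 to 1.06) was within counting error of 1.

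HADHA, the hydratase and dehydrogenase subunit of the trifunctional protein, was at 69.4 and 74.7 RPKM in Huh1, against 65.0 and 64.6 in Huh7. HADHB, its thiolase subunit, was at 42.3 and 49.5 RPKM in Huh1, against 52.0 and 60.8 in Huh7. The ratio of HADHA to HADHB went from 1.64 and 1.51 in Huh1 to 1.25 and 1.06 in Huh7. The mean siRNA log2 fold changes were 0.05 for HADHA and 0.22 for HADHB (adjusted p = 0.76 and 0.151 by limma).

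ECHS1, the short-chain hydratase, was at 241 and 252 RPKM in the Huh1 libraries and 137 and 152 in those of Huh7. HADH, the short-chain hydroxyacyl-CoA dehydrogenase, was at 11.1 and 11.8 RPKM in Huh1, against 20.9 and 21.1 in Huh7. Both genes lay closer together within a line than between the lines, in opposite orders. ACAA2, a thiolase, was at 44.3 and 47.6 RPKM in Huh1, against 37.6 and 41.5 in Huh7. DECR1, a reductase for unsaturated chains, was at 57.9 and 61.5 RPKM in the Huh1 libraries and 44.6 and 50.9 in those of Huh7.

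The genes of the electron transfer flavoprotein were among the most abundant members in both lines. ETFB, the beta subunit of the electron transfer flavoprotein, was at 344 and 319.96 RPKM in Huh1, against 63.9 and 75.9 in Huh7. ETFA, its alpha subunit, was at 199 and 220.4 RPKM in Huh1, against 128 and 126 in Huh7. The ratio of ETFA to ETFB was thus 0.58 and 0.689 in Huh1 and 2 and 1.66 in Huh7, so the order of the subunit transcripts was reversed between the lines under either siRNA. ETFDH, which hands the electrons to ubiquinone, was at 9.99 and 11.2 RPKM in the Huh1 libraries and 7.02 and 6.38 in those of Huh7. None of the 3 passed for siRNA (limma adjusted p from 0.655 to 0.963).

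**Figure D2:**
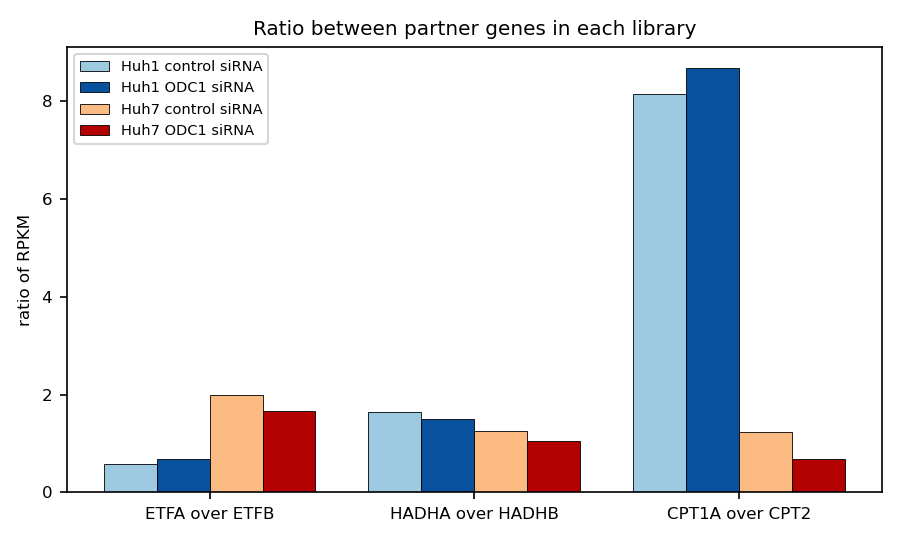
Ratios of RPKM for 3 pairs of partner genes, with 1 bar per library and a linear axis from 0. ETFA over ETFB lies below 1 in Huh1 (0.58 and 0.689) and above 1 in Huh7 (2 and 1.66), and CPT1A over CPT2 lies at 8.15 and 8.68 in Huh1 and at 1.23 and 0.69 in Huh7.

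Log2 fold changes of the peroxisomal genes with siRNA lay between -0.26 and 0.20 in Huh1 and between -0.15 and 0.05 in Huh7. EHHADH, the bifunctional enzyme, was at 18.5 and 16.3 RPKM in Huh1, against 5.54 and 5.03 in Huh7. HSD17B4, the other multifunctional enzyme, was at 81.0 and 74.9 RPKM in Huh1, against 53.3 and 48.0 in Huh7. ACOX2, an oxidase of branched chains and bile acid intermediates, was at 7.86 and 7.14 RPKM in the Huh1 libraries and 3.80 and 3.43 in those of Huh7. None of these 3 passed for siRNA (limma adjusted p = 0.462, 0.356 and 0.62), and the counting intervals held 1 for ACOX2 in both lines and for EHHADH in Huh7. Each was lower in Huh7 than in Huh1 (limma adjusted p = 1.78e-06, 5.78e-05 and 0.000139).

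SCP2, which encodes a sterol carrier and a thiolase from alternative starts, had its shorter transcript (1298 bases) at 88.1 and 97.0 RPKM in Huh1, against 192 and 179 in Huh7. Its longer transcript (2003 bases) was at 11.6 and 13.4 RPKM in Huh1, against 20.2 and 18.3 in Huh7. Both SCP2 transcripts were higher in Huh7, and reads that the transcripts share may have been split between them. ACOX3, another branched-chain oxidase, was at 4.45 and 3.56 RPKM in the Huh1 libraries and 5.38 and 5.62 in those of Huh7. ACAA1, the peroxisomal thiolase, ranged from 51.1 to 59.0 RPKM over the 4 libraries.

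The ketone body members were ACAT1, the mitochondrial acetoacetyl-CoA thiolase, and BDH1, which interconverts acetoacetate and beta-hydroxybutyrate. ACAT1 was at 44.0 and 54.3 RPKM in Huh1, against 29.4 and 30.5 in Huh7. BDH1 was at 8.56 and 6.82 RPKM in Huh1, against 1.00 and 0.830 in Huh7. The Huh7 values of BDH1 rest on about 42 and 29 reads, and neither gene passed for siRNA (limma adjusted p = 0.317 and 0.435).

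FABP1, the liver fatty acid-binding protein, was at 221 and 286 RPKM in the Huh1 libraries and 42.7 and 27.6 in those of Huh7. The ratio of ODC1 to control siRNA was 1.29 (1.21 to 1.38) in Huh1 and 0.648 (0.531 to 0.791) in Huh7. It was the only 1 of the 34 tested rows at least 0.2 above 0 in Huh1 and at least 0.2 below 0 in Huh7 on the log2 scale, a pattern held by 1.22% of all transcripts. The fatty acid uptake receptor CD36 was at 48.1 and 38.3 RPKM in Huh1, against 0.552 and 0.290 in Huh7. The Huh1 ratio of CD36 was 0.796 (0.734 to 0.863), while 15 and 7 reads in Huh7 gave 0.525 (0.192 to 1.45), within counting error of 1.

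The thioesterases ACOT1, of the cytosol, and ACOT2, of mitochondria, are near-identical neighbours, so their values are uncertain where reads could be split. ACOT1 ranged from 5.68 to 7.31 RPKM and ACOT2 from 11.4 to 15.0 RPKM over the 4 libraries. CYP4A11, an omega-hydroxylase with a close copy in CYP4A22, was listed at 0.0293, 0.140, 0.0107 and 0 RPKM in Huh1 control, Huh1 ODC1, Huh7 control and Huh7 ODC1, which is about 4 reads at most.

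**Figure D3:**
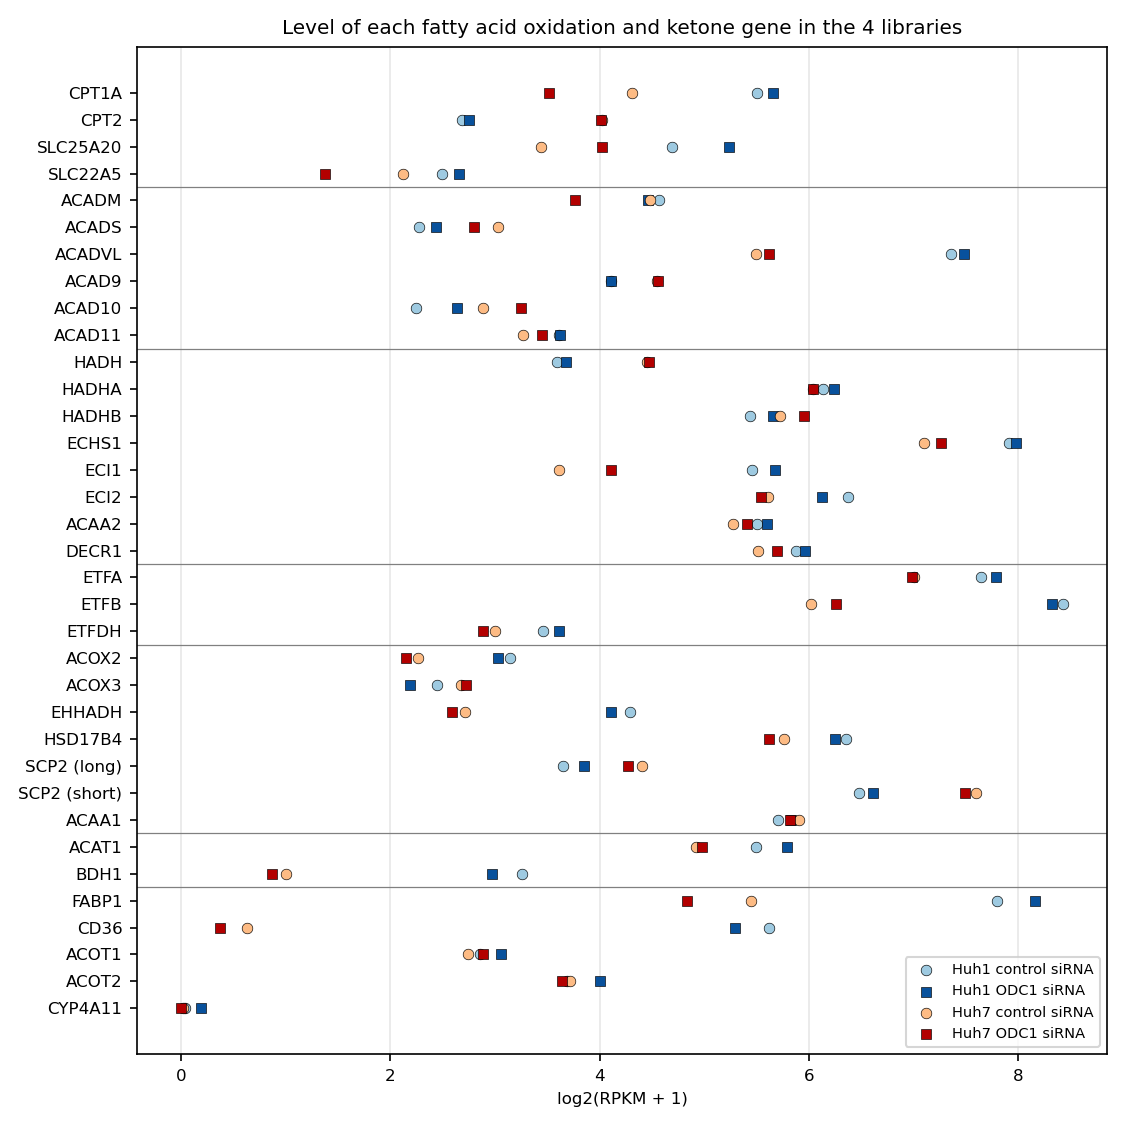
Level of each of the 35 member rows as log2(RPKM + 1), with 1 point per library (circles for control and squares for ODC1 siRNA) and grey lines between the roles. Levels run from ETFB at 344 RPKM in Huh1 down to CYP4A11 at or near 0, and CD36 shows the widest gap between the lines.

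The comparison of Huh7 with Huh1, fitted over both siRNAs, gave a call for most members. Of 34 tested member rows, 21 were lower in Huh7 and 9 higher by limma, beside 30.8% lower and 43.1% higher over all transcripts. Higher in Huh7 were CPT2, ACADS, ACAD9, ACAD10, HADH, HADHB, ACOX3 and both SCP2 rows, while HADHA, ACAA1, ACOT1 and ACOT2 did not pass. Scaling moved some of these calls: HADHA passed with quantile and upper quartile scaling, ACOT1 with quantile and ACAA1 with TPM scaling, while ACOX3 was lost with quantile and ACADM, ACAA2 and ACAD11 with TPM scaling. The median line difference of all transcripts was 0.14 with control and 0.11 with ODC1 siRNA, against member medians of -0.37 and -0.61. With TPM scaling the medians of all transcripts became 0.26 and 0.23, and those of the members -0.25 and -0.48. With 2 lines, these differences belong to these 2 lines.

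At 2-fold on the log2(RPKM + 1) scale with control siRNA, 9 members were lower in Huh7 (10.2% of all transcripts) and 2 were higher (17.0%). With ODC1 siRNA, 10 were lower (11.1%) and 1 was higher (16.2%). The 9 were ACADVL, SLC25A20, CD36, FABP1, CPT1A, ECI1, EHHADH, ETFB and BDH1, and SLC22A5 joined them with ODC1 siRNA. CPT2 was higher under both siRNAs, and the shorter SCP2 row with control siRNA. ACOX2 was past 2-fold lower in plain RPKM (ratios of 0.483 and 0.481), but not on this scale (-0.885 and -0.876).

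CD36 had the largest line difference of the members, with a level in Huh1 that was 87.2 times that in Huh7 with control siRNA (counting interval 54.3 to 161) and 132 times with ODC1 siRNA (62.1 to 320). On the log2(RPKM + 1) scale, used for the differences below too, that of CD36 was -4.96 (SE 0.11, limma adjusted p = 3.27e-09). This scale shrinks it, because the Huh7 values lay under 1 RPKM, and a pseudocount of 0.1 gave -6.4. FABP1 in Huh1 was 5.18 times (4.57 to 5.89) and 10.4 times (8.77 to 12.2) its level in Huh7, with a mean of -2.84 (SE 0.18, adjusted p = 1.61e-06 by limma). ETFB followed at -2.24 (SE 0.09), BDH1 at -2.18 (SE 0.13) and ACADVL at -1.86 (SE 0.07). In the carnitine shuttle, CPT1A was at -1.67 (SE 0.18), SLC25A20 at -1.23 (SE 0.09) and SLC22A5 at -0.83 (SE 0.20), while CPT2 was at 1.30 (SE 0.10).

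Among the other members that were higher in Huh7, the SCP2 rows were at 1.00 and 0.59, HADH at 0.82 and ACAD10 at 0.62. Summed over all member rows, the level was 2047 and 2177 RPKM in Huh1 and 1203 RPKM in either Huh7 library, or 0.441%, 0.472%, 0.284% and 0.285% of all RPKM. The peroxisomal sum went against the total, at 263 and 268 RPKM in Huh1 and 340 and 314 RPKM in Huh7, and SCP2 made up most of it in Huh7. That direction came from SCP2: without its rows the peroxisomal sum was lower in Huh7 under either siRNA. Of the other peroxisomal genes, EHHADH, HSD17B4 and ACOX2 were called lower in Huh7 and ACOX3 higher, while ACAA1 did not pass.

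**Figure D4:**
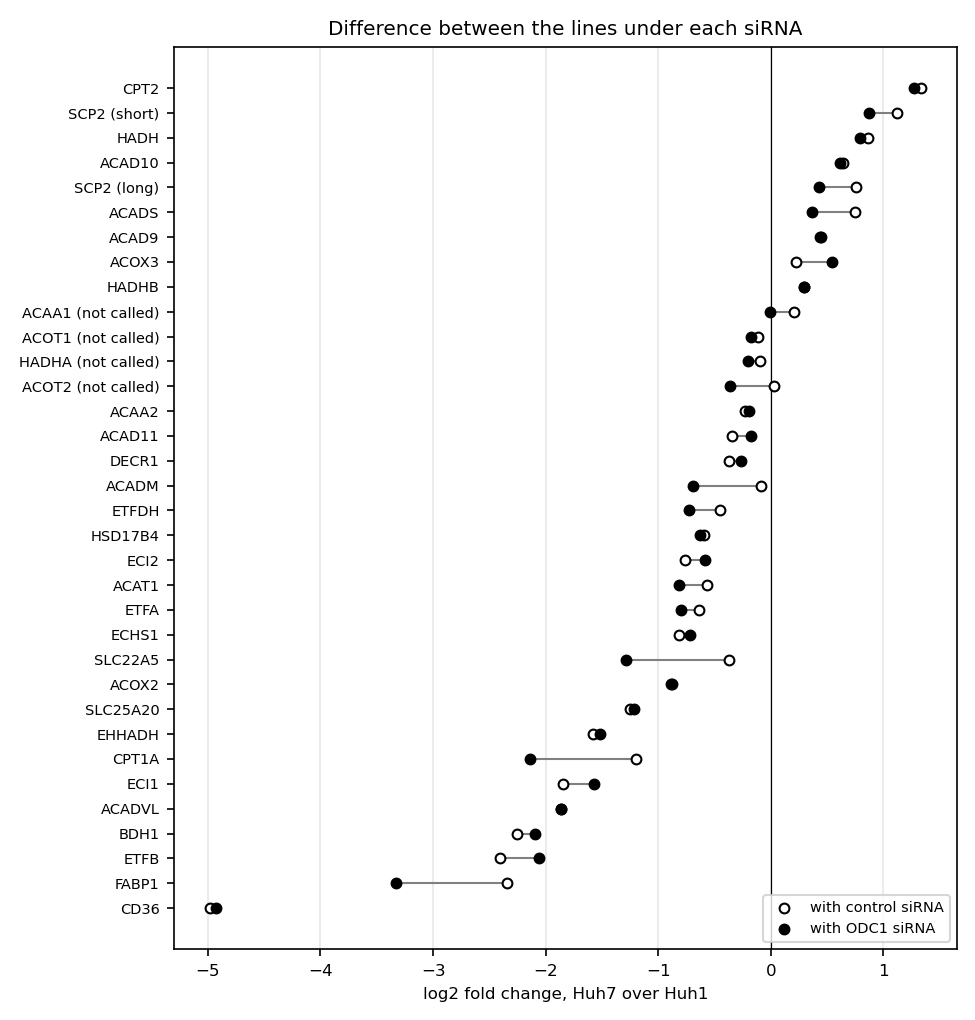
Log2 fold change of Huh7 over Huh1 for each of the 34 tested rows, on the log2(RPKM + 1) scale, with control siRNA (open circles) and ODC1 siRNA (filled circles), joined by a line and ordered by their mean. CD36 (-4.98 and -4.93) lies lowest and CPT2 (1.34 and 1.27) highest, and the circles lie far apart for FABP1 (-2.35 and -3.33), CPT1A (-1.20 and -2.14) and SLC22A5 (-0.37 and -1.28).

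Other genes of the pathway were taken from a list of 76, of which 63 could be tested. With ODC1 siRNA, none was called higher (1.5% of all transcripts) and 3 were called lower (0.615%) by limma, HMGCS1 (-0.53, adjusted p = 0.0421), ACSL4 (-0.44, adjusted p = 0.0221) and ACAT2 (-0.40, adjusted p = 0.0403). These 3 calls were lost without a filter, without a variance trend and without the line term, where no transcript was called. With a trend on counting variance they held (limma adjusted p = 0.0285, 0.013 and 0.0285). Their calls under the other settings are not given here. HMGCS1 and ACAT2 act at the start of cholesterol synthesis in the cytosol, and ACSL4 activates polyunsaturated fatty acids. HMGCS1 was at 77.8 and 63.0 RPKM in Huh1, against 267 and 156 in Huh7. The remaining genes named by size, PDK4, SLC27A4 and SIRT5, did not pass. PDK4, the kinase that spares glucose by blocking pyruvate dehydrogenase, was at 3.41 and 5.95 RPKM in the Huh1 libraries and 0.399 and 0.423 in those of Huh7.

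Between the lines, 31 of the 63 were lower in Huh7 (30.8% of all transcripts) and 19 higher (43.1%) by limma. OXCT1, which activates acetoacetate where ketone bodies are burned, was at 0.231 and 0.150 RPKM in Huh1, against 12.1 and 13.6 in Huh7. Both Huh7 libraries lay far above both Huh1 libraries, a line difference of 3.54 (limma adjusted p = 8.25e-08), opposite in direction to ACAT1 and BDH1. On the same scale, the omega-hydroxylase genes CYP4F11 (-5.73) and CYP4F3 (-4.37) were lower in Huh7. So were the acyl-CoA synthetase gene ACSL5 (-3.38) and the thioesterase gene ACOT12 (-2.88).

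PPARA, the nuclear receptor of the fasting liver, was singled out after its values were seen. PPARA was at 9.35 and 11.3 RPKM in Huh1, against 2.96 and 2.30 in Huh7, a line difference of -1.64.

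**Figure D5:**
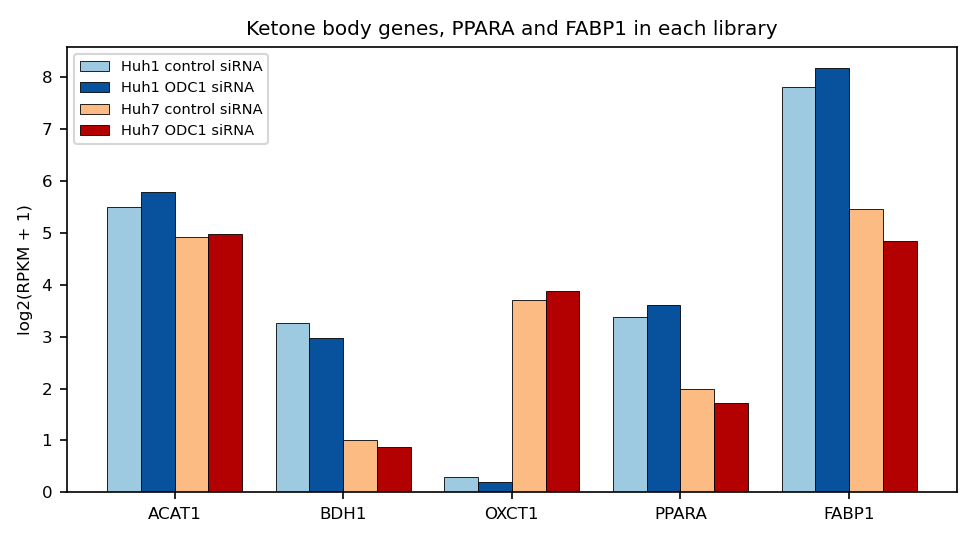
Level of the ketone body genes ACAT1, BDH1 and OXCT1, and of PPARA and FABP1, as log2(RPKM + 1), with 1 bar per library. OXCT1, at 0.231 and 0.150 RPKM in Huh1 and 12.1 and 13.6 RPKM in Huh7, is the gene of these that is higher in Huh7.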

How the data were processed

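TruSeq RNA libraries were prepared from total RNA, per the labels' protocols, 1 for each of 4 samples. The submitters' processing notes name CASAVA 1.8.2, TopHat2 2.0.9 and hg19. How reads were counted, with which annotation and whether by strand, is not given in the sources used here. Overlapping genes on opposite strands may therefore share reads. The deposited values are RPKM per RefSeq transcript, computed by the authors.

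Depth was recovered from values under 0.3 RPKM, of which 23% to 26.9% per library were whole reads within 0.02 reads. Read numbers are therefore approximate; they used GENCODE 29 lengths and served for exact Clopper-Pearson intervals (95%) and a trend on counting variance. RPKM is not a count, so limma 3.58.1 (R 4.3.3) was fitted to log2(RPKM + 1), which understates changes of low genes, with line and siRNA as terms, a trend on mean expression, transcripts with at least 1 RPKM in any library, Benjamini-Hochberg adjustment and a threshold of 0.05. The 1 residual degree of freedom was moderated with 7.42 prior degrees of freedom, so a standard error is set mostly by other transcripts of like level. The line pairs the control and ODC1 libraries and is the replicate block of the siRNA comparison. For the line comparison, the siRNA term takes that place.

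The genes, the lists and the words searched were chosen with earlier results of these data known. By the naming rule, full values were given for members called in either fit, the 10 largest mean changes and the 10 largest line differences at 5 RPKM or more, and for the 6 largest of each kind among other pathway genes. A few genes of the pathway are not reported here. The alternatives were other scalings, pseudocounts, filters and variance trends, no line term (for the line comparison, no siRNA term), each line alone, and a 1.5-fold rule. A 1.2-fold rule was added after the data were seen.

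The fit was tested on 5 simulated data sets with 200 changed transcripts and a dispersion of 0.005. Changed transcripts had at least 5 RPKM in some library. Their simulated siRNA change was the same in both lines, and their line change the same under both siRNAs. Effects that differ between the lines, as the values of CPT1A and FABP1 do, were not simulated. The shares below hold for the simulated setting and may not hold for these data. For the siRNA comparison (at least 11998 tested) it recovered 74.7% of 1.5-fold, 97.7% of 2-fold and 100% of 4-fold changes, and 12.7% of its calls were unchanged transcripts (5.3% with the counting trend). For the line comparison (at least 11712 tested) the shares were 82.4%, 98.6%, 100% and 10.1%.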

Additional observations from a re-analysis of the deposited data

Results flagged for a closer look

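FABP1 and PPARA had log2 fold changes with ODC1 siRNA of at least 0.2 in opposite directions in the lines, above 0 in Huh1 and below 0 in Huh7. FABP1 was at 0.37 in Huh1 and -0.61 in Huh7, a difference of -0.98. PPARA was at 0.24 and -0.26, a difference of -0.51. For neither gene was that difference tested, since 4 libraries leave no degree of freedom for it.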

How the results depend on the processing

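The single member call with siRNA, SLC25A20, became 0 calls with quantile normalization, with a pseudocount of 0.1, without a filter, without a variance trend and without the replicate block (no line term); members at an unadjusted limma p under 0.05 then numbered 6, 6, 4, 4 and 0. The call was kept with upper quartile scaling, TPM scaling, a 5 RPKM filter and a counting trend. Over all transcripts, the 255 siRNA calls became 53 with quantile normalization, 153 with TPM scaling, 54 with a pseudocount of 0.1, 108 with a 5 RPKM filter, and 0 without a filter, without a variance trend and without the replicate block (2040, 1830 and 22 at an unadjusted limma p under 0.05). Calls over all transcripts rose to 380 with upper quartile scaling and to 338 with a counting trend. The causes were not tested. Line calls among members numbered 25 to 31 over the alternatives, beside 30, with 25 in the fit that left out the siRNA term. The mean siRNA change turned below 0 for CPT2 (-0.0019 with quantile normalization, -0.0103 with upper quartile scaling), ETFDH (-0.0015 and -0.0215) and ACAD9 (-0.0117 and -0.0353), and with upper quartile scaling for ACAA1 (-0.0217) and for the longer and shorter SCP2 transcripts (-0.0080 and -0.0261). No line difference turned under another scaling, pseudocount, filter or trend, or without the siRNA term. Within 1 siRNA, which was run as an alternative for called members alone, ACOT2 was at 0.03 with control and ACAA1 at -0.01 with ODC1 siRNA, against means of -0.17 and 0.10. Members past the size rule went from 0 at 2-fold to 7 at 1.2-fold in Huh1 (16.2% of all transcripts), and in Huh7 from 0 to 4 at 1.5-fold (5.69%) and 7 at 1.2-fold (31.0%), or to 1 with a pseudocount of 0.1. Between the lines they went from 11 to 20 at 1.5-fold (47.7% of all transcripts) and 27 at 1.2-fold (73.7%) with control siRNA, and from 11 to 22 (47.7%) and 29 (73.2%) of 34 with ODC1 siRNA. Depth limits CYP4A11, and CD36 and BDH1 in Huh7.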

Other observations

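In the 3′ UTRs of GENCODE 29, the word ATATCAT stood in 33 of 73 transcripts lower with ODC1 siRNA over both lines by limma (45.2%), against 1168 of 11662 tested transcripts and 10 of 179 that were higher. The word TCGGAGA stood in 27 of 179 higher transcripts (15.1%), against 199 of 11662 tested and 0 of 73 lower ones. Neither word stood in the 3′ UTR of any of the 35 member rows, SLC25A20 included. Both words were picked with earlier results of these data known, so these shares are a description with no test.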
